A study of Rattus norvegicus with 9 samples.

Results

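The genes described are 34 genes of cholesterol and fatty acid synthesis and of the SREBP system that controls them, in cultured rat synovial fibroblasts, which line the joint and make its fluid and matrix. They were taken by gene symbol from a list of 34 names of this pathway, and 34 of the 34 were found among the 17298 genes of the expression table. The condition for testing was a mean of at least 1 FPKM, a level normalized for transcript length and library size, over the 9 libraries. Of all genes, 11372 met it, and so did 34 of the 34, the lowest being Elovl6 with a mean of 5.46 FPKM. By role, 19 belong to the sterol branch, 10 to the fatty acid branch and 5 to the regulators and sterol transfer proteins.

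RNA was sequenced from wild-type synovial fibroblasts in 3 groups of 3 libraries each. In the co-culture group, cells were given the cytokine IL-1β and shared a transwell, a chamber divided by a porous membrane, with dermal fibroblasts in the upper part. In the IL-1β group, cells were given IL-1β in normal culture, and in the control group they were kept in normal culture without it. The synovium was digested to free the cells, and messenger RNA was selected by its poly(A) tail. The sources used here do not state the dose and duration of IL-1β, the strain, age or sex of the rats, or any empty insert in the remaining groups. Co-culture without IL-1β is not analysed here. Whether replicate libraries stem from different rats or dishes is not stated either, and p-values therefore reflect library-to-library spread that may be technical.

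Cells make cholesterol from acetyl-CoA through the mevalonate pathway, squalene and lanosterol, and make fatty acids from acetyl-CoA and malonyl-CoA, which elongases and desaturases then modify. Genes of both routes carry sterol regulatory elements and are driven by the transcription factors SREBP1 and SREBP2, encoded by Srebf1 and Srebf2. The factors are made as membrane precursors, which the escort protein Scap carries from the endoplasmic reticulum to the Golgi for cleavage, and which Insig proteins hold back when sterols are plentiful. SREBP2 is known mainly for the sterol genes and SREBP1c for the fatty acid genes. Messenger RNA, as measured here, does not show cleavage or activity of these factors.

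Promoters of members were read from RefSeq (rat assembly GRCr8), as the window from 250 bases before to 50 after the annotated start. Those shown are of an early sterol enzyme, the sterol-branch gene that went the other way, and fatty acid genes that fell deeply. Also shown are the feedback gene Insig1 and both listed starts of Srebf1. Capitals mark the NF-Y box CCAAT or its reverse ATTGG, and the E-box CACGTG. NF-Y is a factor known to act beside SREBPs on many of their promoters.
Hmgcs1, chr2:53382054-53382353, forward strand: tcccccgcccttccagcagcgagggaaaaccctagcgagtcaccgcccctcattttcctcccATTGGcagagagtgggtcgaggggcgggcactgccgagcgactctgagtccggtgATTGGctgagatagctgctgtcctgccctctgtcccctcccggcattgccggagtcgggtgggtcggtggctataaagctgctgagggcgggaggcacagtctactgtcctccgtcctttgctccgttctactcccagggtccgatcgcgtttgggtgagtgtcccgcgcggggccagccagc
Ggps1, chr17:55958500-55958799, forward strand: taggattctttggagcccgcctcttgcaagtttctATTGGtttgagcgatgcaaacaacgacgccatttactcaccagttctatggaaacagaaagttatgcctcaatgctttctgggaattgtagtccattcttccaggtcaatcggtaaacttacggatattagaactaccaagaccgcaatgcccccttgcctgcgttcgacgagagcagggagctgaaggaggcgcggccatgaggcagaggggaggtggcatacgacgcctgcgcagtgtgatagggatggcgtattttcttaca
Acss2, chr3:164464453-164464752, forward strand: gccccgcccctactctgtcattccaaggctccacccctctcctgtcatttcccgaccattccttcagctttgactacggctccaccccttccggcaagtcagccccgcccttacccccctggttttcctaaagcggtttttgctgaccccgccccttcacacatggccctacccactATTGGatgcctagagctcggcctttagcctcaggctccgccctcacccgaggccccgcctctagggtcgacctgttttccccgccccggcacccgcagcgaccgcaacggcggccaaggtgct
Fads1, chr1:216252442-216252741, forward strand: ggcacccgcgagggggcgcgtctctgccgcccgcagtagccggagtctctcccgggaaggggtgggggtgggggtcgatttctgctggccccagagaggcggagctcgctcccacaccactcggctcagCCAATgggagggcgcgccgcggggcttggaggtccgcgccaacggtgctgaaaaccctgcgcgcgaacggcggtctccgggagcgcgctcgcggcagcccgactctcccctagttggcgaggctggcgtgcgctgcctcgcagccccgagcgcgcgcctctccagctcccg
Insig1, chr4:8057720-8058019, reverse strand: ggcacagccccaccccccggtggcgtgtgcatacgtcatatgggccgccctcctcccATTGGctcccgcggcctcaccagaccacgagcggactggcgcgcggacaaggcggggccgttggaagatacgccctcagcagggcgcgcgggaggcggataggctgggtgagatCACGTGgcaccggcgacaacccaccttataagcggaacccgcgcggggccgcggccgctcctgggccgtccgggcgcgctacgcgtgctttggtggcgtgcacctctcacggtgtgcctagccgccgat
Srebf1 (upstream start), chr10:45529115-45529414, reverse strand: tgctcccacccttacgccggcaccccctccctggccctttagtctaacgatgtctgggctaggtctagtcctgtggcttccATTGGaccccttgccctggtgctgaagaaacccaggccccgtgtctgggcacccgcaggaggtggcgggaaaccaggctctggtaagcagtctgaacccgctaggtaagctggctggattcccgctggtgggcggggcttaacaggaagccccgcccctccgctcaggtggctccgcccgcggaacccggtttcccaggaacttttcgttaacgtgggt
Srebf1 (downstream start), chr10:45518961-45519260, reverse strand: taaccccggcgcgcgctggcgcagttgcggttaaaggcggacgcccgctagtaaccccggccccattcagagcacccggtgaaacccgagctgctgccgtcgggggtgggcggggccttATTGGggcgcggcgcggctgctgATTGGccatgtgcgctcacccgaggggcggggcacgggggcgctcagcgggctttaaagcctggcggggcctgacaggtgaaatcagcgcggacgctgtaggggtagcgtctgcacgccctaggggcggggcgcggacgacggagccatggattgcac

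Of the 34 members, 27 had an entry in the promoter table, matched by gene ID, and Srebf1 had 2. The NF-Y box CCAAT, searched on both strands, stood in 20 of the 27 promoters (74.1%), counting the first listed start of Srebf1, against 38.1% of the 10138 promoters of tested genes and 37.5% of all 33469 promoters of the same length. Among sterol genes it stood in 13 of 16 (81.2%), with 5 matches each in Mvk and Nsdhl, and among fatty acid genes in 4 of 7 (57.1%). The Sp1 GC box GGGCGG stood in 21 of 27 (77.8%), against 63.3% of the promoters of tested genes, and the E-box in 4 of 27 (14.8%), against 9.49%. The strict sterol regulatory element TCACNCCAC stood in 0 of the 27 windows and in 1.09% of the promoters of tested genes, which says only that these letters are not in these windows. None of these motif strings contains another. No binding was measured, and no test was made of these shares.

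Nearly the whole set was lower with IL-1β. Of the 34 members, 33 fell, from the first enzyme of the mevalonate route to the last step of cholesterol synthesis and through each fatty acid enzyme of the set, and Ggps1 alone rose. The median log2 fold change of the 34 was -0.59, against -0.04 over all genes tested, on the log2(FPKM + 1) scale used for all fold changes here. By limma with Benjamini-Hochberg adjusted p below 0.05, 31.2% of all genes tested fell and 20.5% rose (24.6% and 26% after median-of-ratios scaling of the libraries, with 32 members lower). A fall of at least 0.5 on the log2 scale was called in 23 members, against 7.16% of all genes, and a rise of that size in 0, against 6.46%. The 3 IL-1β libraries lay below each of the 3 control libraries in 33 of the 34, a separation that 35.0% of all genes showed in that direction. In bulk RNA, fewer cells of a type and less RNA per cell cannot be told apart.

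**Figure D1:**
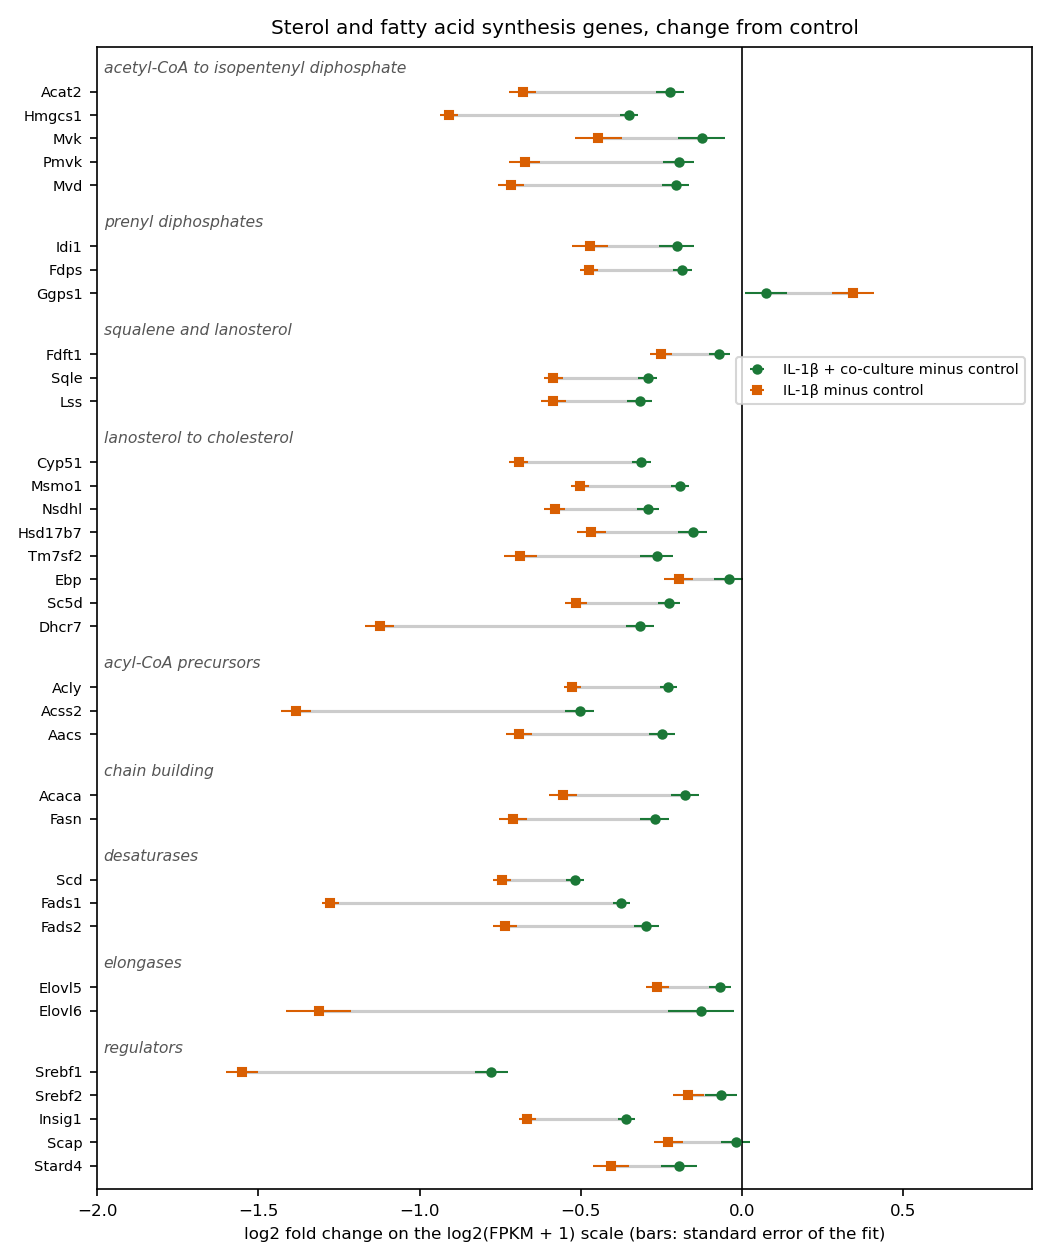
Log2 fold change from control of each of the 34 members, in IL-1β with co-culture (circles) and in IL-1β alone (squares), on the log2(FPKM + 1) scale, ordered by step of the pathway. Bars are standard errors of the fit. Of the 34 squares, 33 lie left of 0 and Ggps1 lies right of it at 0.35, and in each row the circle lies nearer to 0 than the square. The 2 contrasts share the control libraries.

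Among the regulators Srebf1 had the largest fall, which on the log2(FPKM + 1) scale was also the largest of the 34. It stood at 15.65, 14.74 and 15.05 FPKM with IL-1β, against 45.33, 47.64 and 46.03 FPKM in control. The groups lay far apart, with the IL-1β mean at 32.7% of control (log2 fold change -1.55 ± 0.05, limma adjusted p = 2.6e-10), and 62 of the 11372 genes tested had a lower log2 fold change. In the RefSeq gene table Srebf1 overlaps Rai1, and since no source states that reads were counted by strand, reads in the shared stretch cannot be assigned. Rai1 had a log2 fold change of -0.30. The sister gene Srebf2 stood at 26.14, 24.67 and 25.37 FPKM with IL-1β, against 26.93, 30.3 and 28.67 FPKM in control. The groups did not overlap but lay close, and the small fall (log2 fold change -0.17 ± 0.05, adjusted p = 0.015) did not pass after median-of-ratios scaling (adjusted p = 0.071), without IL-1β replicate 2 (adjusted p = 0.056) or without control replicate 2 (adjusted p = 0.066).

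Insig1, which encodes the retention protein and is itself a classic SREBP target, was at 104.43, 103.41 and 107.4 FPKM with IL-1β, against 169.75, 164.93 and 167.18 FPKM in control (log2 fold change -0.67 ± 0.03, adjusted p = 1.7e-09). Its IL-1β libraries all lay more than 50 FPKM below the lowest control library. Scap, the escort, fell less, to 16.7 ± 0.83 FPKM with IL-1β against 19.8 ± 0.70 in control (SD, n = 3 each). Stard4, a cytosolic sterol carrier, had 10.2 ± 0.33 FPKM with IL-1β and 13.8 ± 0.97 in control. Of the regulators, 5 of 5 fell, with log2 fold changes between -1.55 and -0.17.

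**Figure D2:**
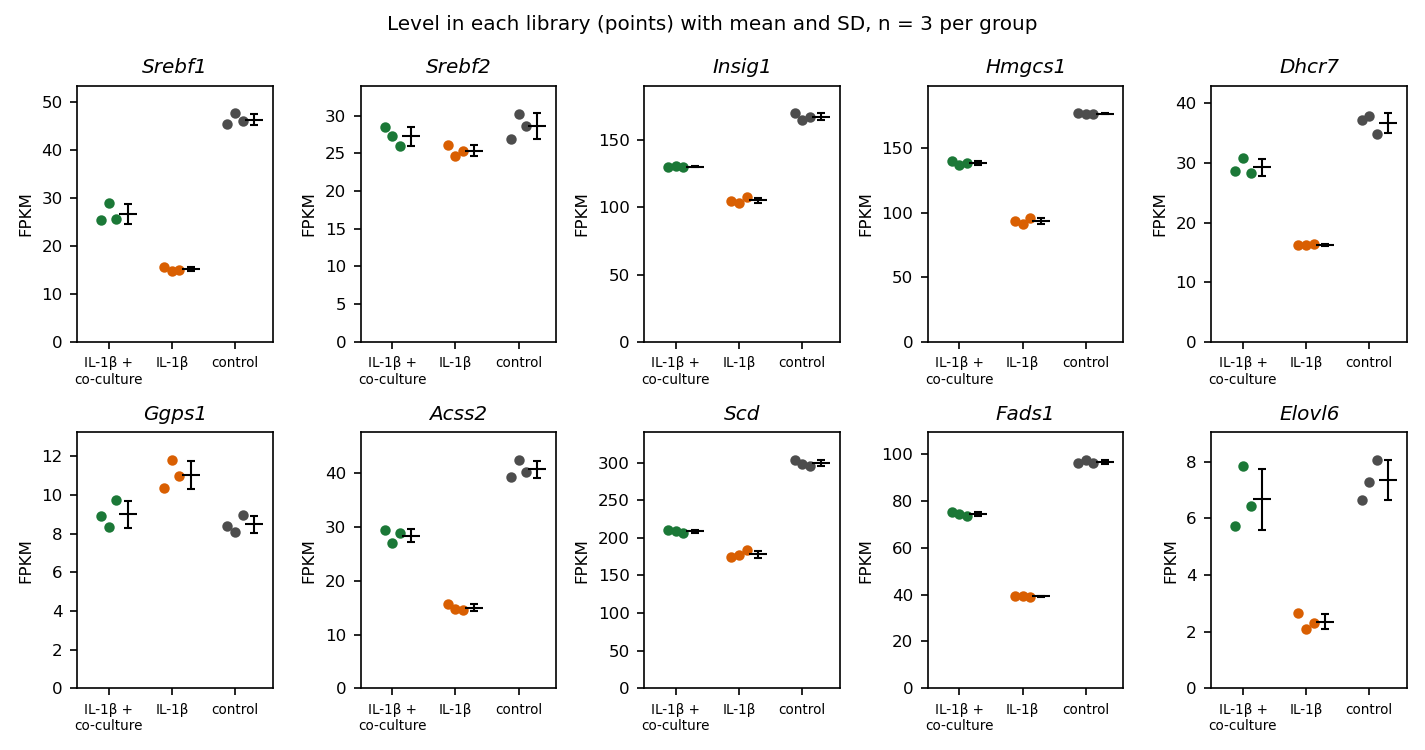
FPKM of 10 members in each library (points; left to right IL-1β with co-culture, IL-1β, control), with the group mean and SD beside them (n = 3 per group). In 9 panels the IL-1β mean is the lowest, most clearly for Srebf1, Dhcr7, Acss2, Fads1 and Elovl6, and in the Ggps1 panel it is the highest. In the Srebf2 panel the IL-1β and co-culture points overlap.

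In the sterol branch 18 of 19 members fell with IL-1β and 1 rose, with a median log2 fold change of -0.58. The 5 enzymes from acetyl-CoA to isopentenyl diphosphate all fell, with a median log2 fold change of -0.68. Hmgcs1, the synthase that makes HMG-CoA, led them at 93.4, 91.57 and 96.22 FPKM with IL-1β, against 176.99, 176.72 and 176.83 FPKM in control (log2 fold change -0.91 ± 0.03, adjusted p = 1.2e-10). The spread within each group was under 5 FPKM, against a gap of over 80 between them. The thiolase gene Acat2 and the phosphomevalonate kinase gene Pmvk stood at 61.9% and 61.7% of control and the mevalonate kinase gene Mvk at 72.4%. The decarboxylase gene Mvd had a log2 fold change of -0.72 ± 0.04.

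The prenyl step held the exception. Idi1, the isopentenyl diphosphate isomerase gene, and Fdps, which makes farnesyl diphosphate, stood at 71.7% and 71.9% of control. Fdps had 362 ± 3.7 FPKM with IL-1β and 503 ± 11.1 in control. Ggps1, whose enzyme extends farnesyl diphosphate to the geranylgeranyl donor of protein prenylation and so leads away from sterols, was at 10.36, 11.82 and 10.97 FPKM with IL-1β, against 8.38, 8.09 and 8.97 FPKM in control. All its IL-1β libraries lay above all control libraries (log2 fold change 0.35 ± 0.06, adjusted p = 8.5e-04).

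From squalene onward the falls varied in depth. Fdft1, the squalene synthase gene at the entry to the sterol-only part, stood at 83.7% of control, whereas Sqle and Lss, which make squalene epoxide and lanosterol, stood at 66.2% and 65.6%. Of the 8 enzymes from lanosterol to cholesterol, 8 fell, with log2 fold changes between -1.12 and -0.20. The demethylase gene Cyp51 and the methyl sterol oxidase gene Msmo1 had 127 ± 3.7 and 145 ± 2.7 FPKM with IL-1β, against 206 ± 3.1 and 206 ± 4.3 in control. Nsdhl and Hsd17b7, which complete removal of the methyl groups, and Sc5d, a desaturase, stood at 66.3%, 70.9% and 69.5% of control, and the sterol reductase gene Tm7sf2 at 59.2%.

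The largest and the smallest fall of the branch both lie near its end. Dhcr7, the reductase of the last step, was at 16.19, 16.17 and 16.43 FPKM with IL-1β, against 37.25, 37.9 and 34.79 FPKM in control, a log2 fold change of -1.12 ± 0.04 (adjusted p = 1.4e-09). Ebp, the isomerase a few steps before it, was at 50.4, 52.03 and 50.74 FPKM with IL-1β, against 55.43, 61.36 and 59.28 FPKM in control (-0.20 ± 0.04, adjusted p = 0.0030). The Dhcr7 groups were separated by more than the whole IL-1β level, while the Ebp groups lay close without overlapping. The ratio of Dhcr7 to Ebp within a library, which no library scaling can alter, averaged 0.319 ± 0.0069 with IL-1β and 0.626 ± 0.043 in control.

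In the fatty acid branch 10 of 10 members fell with IL-1β, 9 of them by at least 0.5 on the log2 scale. Acss2, which makes acetyl-CoA from acetate, was at 15.69, 14.75 and 14.51 FPKM with IL-1β, against 39.38, 42.49 and 40.29 FPKM in control. On the log2(FPKM + 1) scale it fell furthest of both branches (-1.38 ± 0.05, adjusted p = 3.1e-10), with no overlap of the groups. Acly, which makes acetyl-CoA from citrate, and Aacs, which activates acetoacetate, stood at 69.2% and 60.8% of control. The chain-building genes Acaca, for acetyl-CoA carboxylase, and Fasn, for fatty acid synthase, stood at 65.2% and 60.4%.

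The genes that desaturate and lengthen the chains split within each kind. Fads1, the delta-5 desaturase gene of polyunsaturated fatty acids, was at 39.29, 39.29 and 39.12 FPKM with IL-1β, against 95.96, 97.48 and 96.19 FPKM in control (log2 fold change -1.28 ± 0.03, adjusted p = 4.1e-12). Fads2, the delta-6 desaturase gene near it on the same chromosome, had 50.9 ± 2.3 FPKM with IL-1β and 85.3 ± 1.2 in control (-0.74 ± 0.04). Neither gene's IL-1β libraries overlapped its control libraries. Scd, a stearoyl-CoA desaturase gene of monounsaturated fat, was at 174.68, 176.55 and 183.33 FPKM with IL-1β, against 303.48, 298.09 and 295.83 FPKM in control (-0.74 ± 0.03).

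Elovl6, which extends saturated C16 chains, was at 2.65, 2.1 and 2.32 FPKM with IL-1β, against 6.66, 7.3 and 8.07 FPKM in control (log2 fold change -1.31 ± 0.10, adjusted p = 6.8e-07). Its mean fell to 32.1% of control, a larger change than the log2(FPKM + 1) value conveys at this low level. Elovl5, which extends polyunsaturated chains, had 74.5 ± 3.4 FPKM with IL-1β and 89.5 ± 1.2 in control (-0.26 ± 0.03, adjusted p = 6.1e-05). It was the one fatty acid gene with a fall under 0.5.

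Set side by side, the fatty acid branch had the deeper median fall, -0.72 against -0.58 in the sterol branch, a difference of -0.14 on the log2 scale. The branches overlapped widely: 7 of the 10 fatty acid genes lay below the sterol median, and 3 of them, Acss2, Elovl6 and Fads1, lay below each sterol gene. The summed level of the fatty acid genes was 487 to 502 FPKM in the IL-1β libraries and 813 to 828 in the control libraries, and that of the sterol genes was 1163 to 1168 FPKM in the IL-1β libraries and 1712 to 1737 in the control libraries. No test of the branch difference was made, since the genes of a branch are not replicates.

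**Figure D3:**
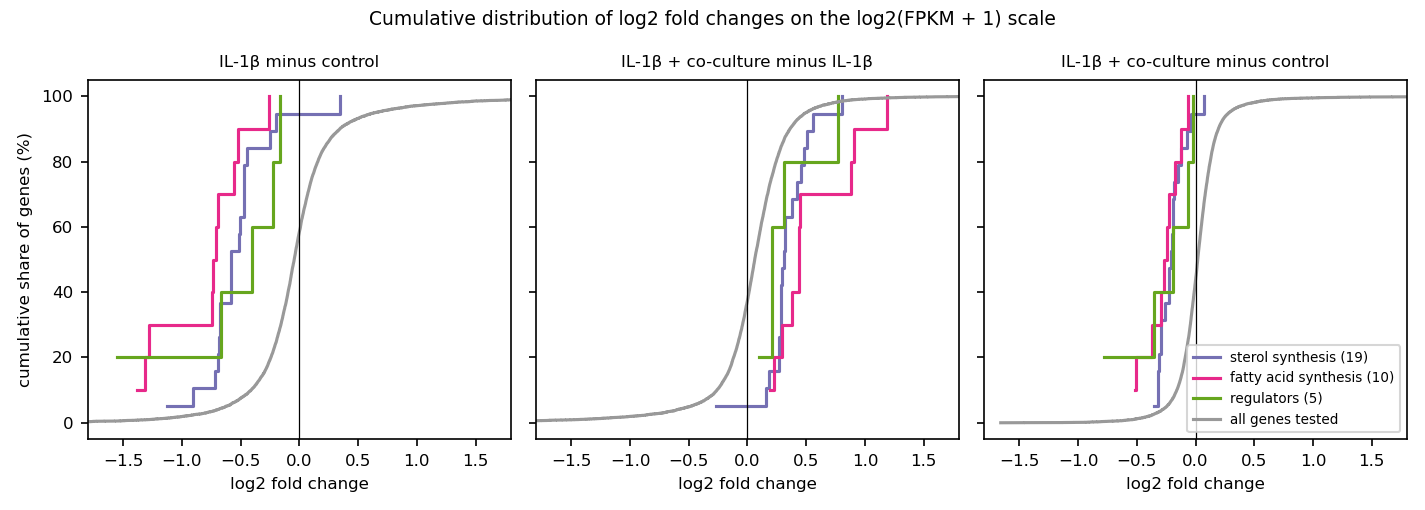
Cumulative share of genes (y axis, percent) by log2 fold change (x axis, log2(FPKM + 1) scale, shown from -1.8 to 1.8) for the sterol, fatty acid and regulator members and for all 11372 genes tested, in the 3 contrasts. The member curves lie left of all genes with IL-1β, right of it in co-culture against IL-1β, and left of it again, by less, in co-culture against control. The contrasts share libraries pairwise.

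In co-culture with dermal fibroblasts the same genes stood higher than with IL-1β alone. Of the 34 members, 32 were higher, Ggps1 was lower, and Srebf2 did not pass, with a median log2 fold change of 0.31 against 0.06 over all genes tested. Over all genes, 33.3% were called higher and 16.7% lower (23.8% and 23.3% after median-of-ratios scaling, with 30 members higher). A rise of at least 0.5 was called in 7 members, against 4.56% of all genes, and a fall of that size in 0, against 4.72%. The co-culture libraries lay above each IL-1β library in 32 members, as in 37.3% of all genes. This contrast shares the IL-1β libraries with the one before it, so a value that happens to be low in those libraries would appear as a fall there and as a rise here. The transwell itself cannot be told apart from the dermal cells in it.

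Among the regulators Srebf1 was at 25.33, 28.97 and 25.68 FPKM in co-culture, against 14.74 to 15.65 FPKM with IL-1β alone, 1.76-fold higher (log2 fold change 0.77 ± 0.05, adjusted p = 2.2e-07). Its co-culture libraries lay between the other groups and overlapped neither. Insig1 was at 130.24, 130.42 and 130.18 FPKM in co-culture (0.31 ± 0.03, adjusted p = 2.5e-06). Srebf2 had 27.3 ± 1.3 FPKM in co-culture and 25.4 ± 0.74 with IL-1β, and these groups overlapped (0.10 ± 0.05, adjusted p = 0.12). Stard4, at 11.9 ± 0.58 FPKM in co-culture, was higher (0.21 ± 0.06, adjusted p = 0.0088), though not after median-of-ratios scaling (adjusted p = 0.051).

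In the sterol branch 18 of 19 genes were higher in co-culture than with IL-1β alone. Dhcr7 led at 28.57, 30.85 and 28.27 FPKM in co-culture (log2 fold change 0.81 ± 0.04, adjusted p = 5.0e-08). Hmgcs1 followed at 139.86, 137.27 and 138.43 FPKM in co-culture, 1.48-fold above IL-1β (0.56 ± 0.03, adjusted p = 1.8e-08). At the low end Ebp had a small rise (0.15 ± 0.04, adjusted p = 0.013), a call lost after median-of-ratios scaling (adjusted p = 0.12) and without co-culture replicate 1 (adjusted p = 0.056). Ggps1 was at 8.94, 8.33 and 9.72 FPKM in co-culture, below each of the IL-1β libraries (-0.27 ± 0.06, adjusted p = 0.0047).

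In the fatty acid branch 10 of 10 genes were higher. Elovl6 was at 5.73, 7.85 and 6.45 FPKM in co-culture, 2.83-fold above IL-1β (log2 fold change 1.19 ± 0.10, adjusted p = 2.5e-06), and 56 of the 11372 genes had a higher log2 fold change. Fads1 was at 75.08, 74.19 and 73.59 FPKM and Acss2 at 29.42, 27.04 and 28.82 FPKM, 1.89-fold and 1.90-fold above IL-1β. The co-culture libraries of all 3 genes lay above each IL-1β library. Scd moved little by comparison, at 210.2, 208.52 and 206.82 FPKM in co-culture, 1.17-fold above IL-1β (0.23 ± 0.03, adjusted p = 4.1e-05).

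Against control, the set in co-culture was still lower. Of the 34 members, 26 were lower and 0 higher, with 8 not past the threshold, and a median log2 fold change of -0.23, against 0.02 over all genes tested. Over all genes, 20.3% passed, 7.91% lower and 12.4% higher (10.3% and 8.86% after quantile normalization, with 27 members lower). The count of members was 22 to 26 when 1 library was left out, and the calls lost then had adjusted p-values of 0.053 to 0.12. They were those of Idi1 (without co-culture replicate 1 or 2 or control replicate 1 or 3), Hsd17b7 (without any 1 co-culture replicate or control replicate 1 or 3), Stard4 (without co-culture replicate 1 or 3 or control replicate 1 or 2), Pmvk (without co-culture or control replicate 2) and Acaca (without co-culture replicate 2 or control replicate 1). A fall of at least 0.5 was called in Srebf1, Scd and Acss2, against 0.967% of all genes, and a rise of that size in 0 members, against 1.47%.

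Srebf1 again differed most, with 26.7 ± 2.0 FPKM in co-culture and 46.3 ± 1.2 in control (log2 fold change -0.78 ± 0.05, adjusted p = 9.1e-07), and 45 of the 11372 genes had a lower log2 fold change. Scd had 209 ± 1.7 FPKM in co-culture and 299 ± 3.9 in control (-0.52 ± 0.03, adjusted p = 1.9e-07). The lower calls comprised 15 of 19 sterol genes, 8 of 10 fatty acid genes and 3 of 5 regulators, with median log2 fold changes of -0.21, -0.26 and -0.20. The 8 that did not pass were Mvk, Fdft1, Ebp, Ggps1, Elovl5, Elovl6, Srebf2 and Scap, with log2 fold changes between -0.13 and 0.08. A p that misses the threshold does not show that these were equal to control.

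The part of the IL-1β change left in co-culture, as the log2 fold change of co-culture from control divided by that of IL-1β from control, had a median of 38.1% over the 33 genes that fell, 38.2% in the sterol branch and 36% in the fatty acid branch. It ranged from 8.53% for Scap and 9.59% for Elovl6 to 69.7% for Scd, with Srebf1 at 50.1%, Insig1 at 53.8%, Lss at 54.1%, Hmgcs1 at 38.5%, Fads1 at 29.2% and Dhcr7 at 28.2%. These shares have no test, and for genes with a small IL-1β change, such as Scap, they rest on small differences.

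Ratios of 2 genes within a library were compared across groups because they do not depend on how libraries are scaled. With the reference uncertain, a ratio does not show which of the 2 genes is the more abundant. Srebf1 to Srebf2 was 0.978 ± 0.087 in co-culture, 0.597 ± 0.0029 with IL-1β and 1.62 ± 0.057 in control (SD, n = 3 each) (Srebf1 with the limit on Rai1 given above). Fads1 to Fads2 was 1.07 ± 0.025 in co-culture, 0.773 ± 0.037 with IL-1β and 1.13 ± 0.024 in control. Scd to Scd2, a closely related desaturase gene, was 0.489 ± 0.0059 in co-culture, 0.751 ± 0.012 with IL-1β and 0.499 ± 0.0053 in control, although reads of such similar transcripts may have been split between them in the authors' counting. Elovl6 to Elovl5 was 0.0783 ± 0.013 in co-culture, 0.0318 ± 0.0051 with IL-1β and 0.0821 ± 0.008 in control. With 3 libraries against 3, a two-sided exact permutation test cannot go below 0.1. Of 18 comparisons over 6 ratios, 16 reached that p (0.11 after adjustment over the 18), and the exceptions were co-culture against control for Scd to Scd2 (exact permutation p = 0.2) and for Elovl6 to Elovl5 (exact permutation p = 0.8).

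**Figure D4:**
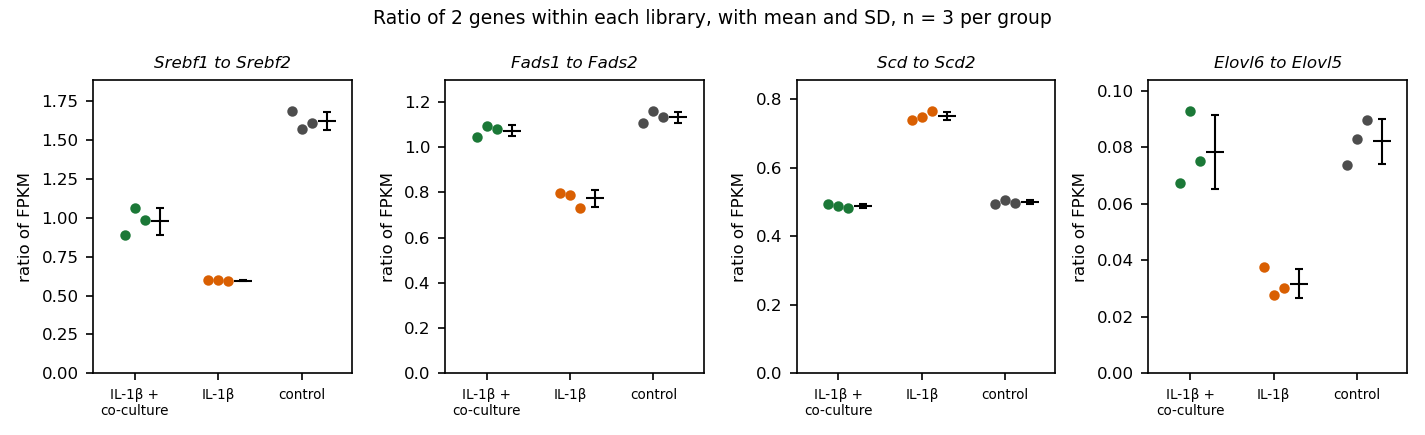
Ratio of the FPKM of 2 genes within each library (points; left to right IL-1β with co-culture, IL-1β, control), with mean and SD (n = 3 per group). IL-1β gives the lowest ratio for Srebf1 to Srebf2, Fads1 to Fads2 and Elovl6 to Elovl5 and the highest for Scd to Scd2. For Scd to Scd2 and Elovl6 to Elovl5 the co-culture mean lies near that of control.

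Other genes of the SREBP pathway, taken from a list of 25 of which 21 were tested, fell in 17 cases with IL-1β and rose in 0, with a median log2 fold change of -0.35. Scd2 was at 424.86, 427.31 and 428.16 FPKM in co-culture, 236.09, 235.87 and 239.91 FPKM with IL-1β, and 613.45, 590.31 and 594.19 FPKM in control. Its 3 groups did not overlap. Thrsp, a nuclear protein gene tied to lipogenesis, had 3.36 ± 0.14 FPKM with IL-1β and 13.9 ± 0.31 in control, and Acsl1, which activates fatty acids, had 26.9 ± 1.0 FPKM with IL-1β and 44.0 ± 1.2 in control. In co-culture against IL-1β, 16 of the 21 were higher and 0 lower. Against control, 9 of the 21 were lower in co-culture, 1 was higher and 11 did not pass, with a median log2 fold change of -0.10. Over all genes, 31.2% fell with IL-1β and 33.3% were higher in co-culture against IL-1β. In co-culture against control, 7.91% of all genes were lower and 12.4% higher.

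In other lipid gene lists, calls with IL-1β went both ways, where 31.2% of all genes fell and 20.5% rose. Of 15 genes of cholesterol uptake, trafficking and storage, 6 fell and 6 rose with IL-1β, with a median log2 fold change of 0.06. Within them the lipoprotein receptor gene Scarb1 fell to 51.7% of control and Vldlr to 58.6%, and the endocytic receptor gene Lrp1 rose to 126.4%. Of 13 glycerolipid synthesis genes 9 fell and 4 rose, and of 13 fatty acid oxidation genes 5 fell and 3 rose. Of 11 LXR target and sterol export genes, 8 fell and Cyp7b1 rose. The call of Ch25h in this list is left out, since it met the minimum level only through its IL-1β libraries. The carnitine palmitoyltransferase gene Cpt1a, the gate of mitochondrial fatty acid oxidation, had 18.4 ± 0.71 FPKM with IL-1β and 9.52 ± 0.16 in control (log2 fold change 0.89 ± 0.04, adjusted p = 6.5e-09). In co-culture against IL-1β, 4 uptake genes were higher and 4 lower. The counts were 8 and 4 for glycerolipid synthesis and 5 and 4 for oxidation. In the LXR list 5 were higher and Cyp7b1 was lower, again leaving out Ch25h. Over all genes, 33.3% were higher and 16.7% lower. These counts were not tested against the background.

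**Figure D5:**
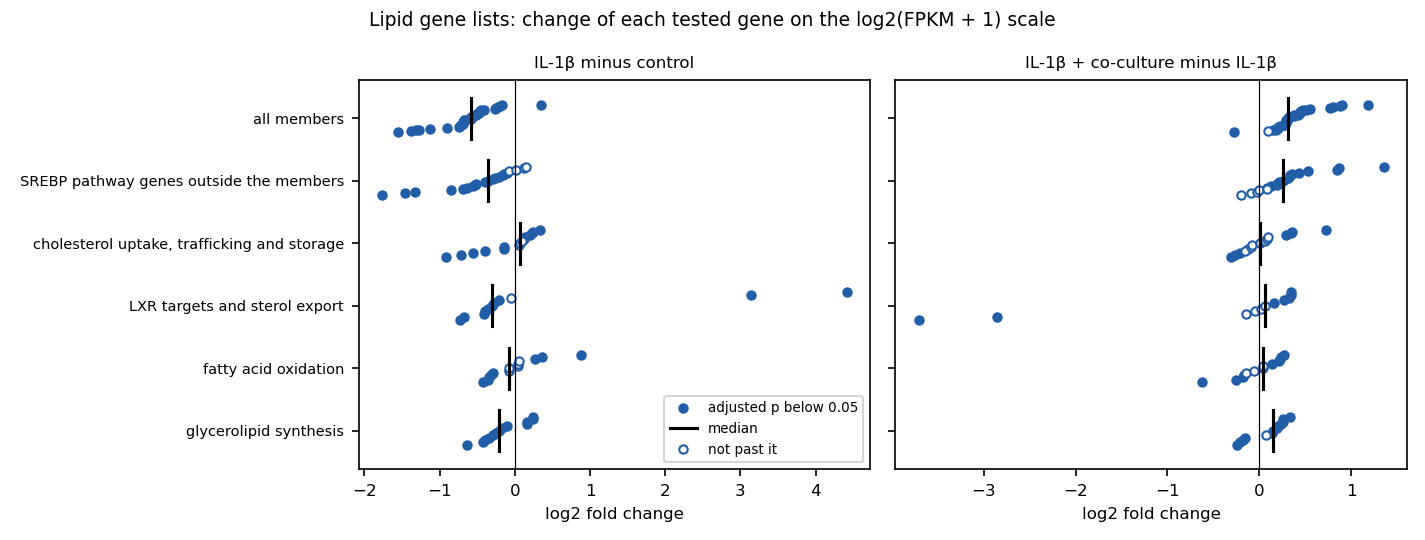
Log2 fold change (log2(FPKM + 1) scale) of each tested gene in the 34 members and in 5 other lipid gene lists, with IL-1β against control and in co-culture against IL-1β. Filled points passed an adjusted p below 0.05 and the black bar is the list's median. The LXR list includes Ch25h, which met the minimum level only through its IL-1β libraries. The members and the further SREBP genes lie mostly left of 0 with IL-1β and right of it in co-culture, and the other 4 lists spread to both sides.

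Libraries and cell markers give the setting of these values. Rank correlations across genes were 0.995 to 0.996 within groups and 0.958 to 0.991 between groups, and no library stood apart from its group. All 12 fibroblast markers passed the minimum level, and they moved both ways. With IL-1β 6 rose and 5 fell, and in co-culture against IL-1β 4 were higher and 7 lower. Over all genes tested, 20.5% rose and 31.2% fell with IL-1β, and 33.3% were higher and 16.7% lower in co-culture against IL-1β. Vim averaged 4342 FPKM in co-culture, 2114 with IL-1β and 4902 in control, whereas the matrix gene Dcn averaged 1196 FPKM in co-culture, 3112 with IL-1β and 641 in control. The lubricin gene Prg4, a product of the joint lining, averaged 140 FPKM in co-culture, 297 with IL-1β and 96.1 in control. Genes used to check the IL-1β response, among them Il6 and Mmp3, rose in 6 of 6. Of 10 tested markers of fat cells, which use the fatty acid branch heavily, 7 fell and 1 rose with IL-1β. In co-culture against IL-1β 6 were higher and 2 lower (Lpl and Retn), and against control 10 of 10 were lower, where 7.91% of all genes were. The summed level of these markers was 727 to 753 FPKM in co-culture, 697 to 727 with IL-1β and 922 to 976 in control. Co-culture and IL-1β overlapped in this sum, which includes the opposite change of Lpl (48.0 FPKM in co-culture, 127 with IL-1β, 52.7 in control). In the 6 markers that were higher, 35.1% (Lipe) to 62.25% (Pnpla2) of the IL-1β change was left in co-culture. Adipoq had 26.9 ± 0.88 FPKM in co-culture, 14.2 ± 0.12 with IL-1β and 38.6 ± 2.0 in control, while the leptin gene Lep was at 0.02 FPKM in each co-culture library and listed at 0 in each IL-1β and control library.

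Chondrocyte markers also moved with the members, with 7 of 8 lower with IL-1β, against 31.2% of all genes tested. Their summed level was 136 to 138 FPKM in co-culture, 44.4 to 47.3 with IL-1β and 286 to 302 in control. Of 12 cell cycle genes, 9 were lower with IL-1β and 12 higher in co-culture than with IL-1β, against 31.2% and 33.3% of all genes. Their summed level was 1007 to 1016 FPKM in co-culture, 784 to 818 with IL-1β and 879 to 893 in control. Of 8 macrophage markers measured, 3 reached a mean of 1 FPKM. Cd14 averaged 15.8 FPKM in co-culture, 22.7 with IL-1β and 13.5 in control, and Cd68 averaged 2.19 FPKM in co-culture, 4.77 with IL-1β and 2.30 in control. Both rose with IL-1β, and both were lower in co-culture than with IL-1β alone, while Lyz2 fell with IL-1β. The summed level of the list was 26.4 to 28.5 FPKM in co-culture, 36.2 to 40.3 with IL-1β and 26.3 to 28.4 in control, and the leukocyte gene Ptprc was at no more than 0.13 FPKM in any library. Endothelial markers were near 0, with 0 of 6 at a mean of 1 FPKM and sums of 0.62 to 1.26 FPKM. The part of adipocyte-type, chondrocyte-type, macrophage-type or cycling cells in the members' changes was not tested.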

How the data were processed

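The members and gene lists were chosen with earlier results of these data known. The authors deposited 1 table of FPKM for 17298 genes, with 2 decimals, per the file headers, and libraries were matched to groups by the library names in the labels. Per the submitters' processing notes the build was GRCm38, a mouse build, although the rows carry rat gene identifiers, and 34 of the 34 members matched the rat RefSeq table (GRCr8). No source used here names the aligner, the quantifier or the annotation. With the reference uncertain, a level is best compared for 1 gene across libraries. FPKM sums were 679774 to 741810 per library. The depth is unknown: values step by 0.01 and the median non-zero value among genes under 0.2 FPKM is 0.06, too coarse to recover reads. The precision rests on the spread between 3 libraries.

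Genes with a mean of at least 1 FPKM were fitted as log2(FPKM + 1) with limma 3.58.1 in R 4.3.3 (a group-means design, 9 libraries), trended and robust empirical Bayes, and two-sided p-values adjusted by Benjamini-Hochberg over 11372 genes. The fit was tested on simulated data. Folds and percentages of control are ratios of mean FPKM. Alternatives were scaling by median of ratios or quantiles, a pseudocount of 0.1, no filter or a minimum of 5 FPKM, plain empirical Bayes, a replicate block, only the groups compared, and each library left out. All 34 members could be named, and from every other list the 3 genes with the smallest p and the 2 highest in each contrast. Names outside that rule are marked, apart from marker genes given as a check on cell type. Values of Idi1 and Acaca, like those of Srebf1, may hold reads of an overlapping gene (Wdr37 and C10h17orf78).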

Additional observations from a re-analysis of the deposited data

How the results depend on the processing

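Over 17 alternatives, the counts of members called stayed within 1.5 times the reported ones in each contrast, and of 1734 member calls 1707 kept their side of the threshold, 26 no longer passed, 20 of them in co-culture against control, 1 newly passed and 0 reversed. The newly passing one was Elovl5 in co-culture against control after quantile normalization (adjusted p = 0.047). Without the filter on low values the members called lower in co-culture against control numbered 23.

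The branch medians (sterol, then fatty acid) kept their sign. In 26 cases over the alternatives they shifted by more than the branch's spread between libraries. After median-of-ratios scaling they were -0.53 and -0.67 for IL-1β against control and 0.24 and 0.37 for co-culture against IL-1β, and the sterol median was -0.22 for co-culture against control. After quantile normalization they were 0.28 and 0.40 for co-culture against IL-1β and -0.27 and -0.30 for co-culture against control. With a pseudocount of 0.1 the sterol median with IL-1β was -0.59. The scalings shift the median of all genes by under 0.1 on the log2 scale. With 1 library left out, the sterol and fatty acid medians were -0.59 to -0.55 and -0.75 to -0.71 for IL-1β against control, 0.30 to 0.31 and 0.42 to 0.45 for co-culture against IL-1β, and -0.24 to -0.20 and -0.28 to -0.24 for co-culture against control.

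Of all calls, higher genes made up 39.7% with IL-1β (51.4% after median-of-ratios scaling), 66.6% in co-culture against IL-1β (50.4%) and 61% in co-culture against control (46.4% after quantile normalization).

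The labels do not say that equal replicate numbers share an origin, and the data do not settle it. Same-numbered libraries correlated at -0.046 to 0.189 in their deviations, all but 1 of them above 0. Only replicate 2 of co-culture and control, at 0.189, exceeded 0.1, and the next highest value was 0.0912. In 11 of 18 comparisons the best match was the own number out of 3 possible ones, more than an even spread over the 3 would give. With the replicate number as a block, the members called were 33 lower and 1 higher with IL-1β, 32 higher and 1 lower in co-culture against IL-1β, and 26 lower in co-culture against control, and the block changed no member call. Without read depths, low members such as Elovl6 carry an error that is known only from 3 libraries.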

Other observations

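Of 12 genes in the list of LXR targets and sterol export, 2 that act on oxysterols were far higher with IL-1β. Ch25h, whose enzyme makes 25-hydroxycholesterol, an oxysterol known to bind Insig proteins, was at 0.5, 0.6 and 0.49 FPKM in co-culture, 10.39, 10.57 and 9.31 FPKM with IL-1β, and 0.33, 0.22 and 0.22 FPKM in control. It reached the minimum mean of 1 FPKM only through the IL-1β libraries, and no fold or test is given for it. Cyp7b1, whose enzyme hydroxylates oxysterols, 25-hydroxycholesterol among them, was at 6.63, 5.93 and 7.14 FPKM in co-culture, 93.46, 98.34 and 101.64 FPKM with IL-1β, and 3.95, 3.4 and 3.54 FPKM in control, 26.9-fold higher with IL-1β than in control (log2 fold change 4.42 ± 0.07, adjusted p = 2.0e-13). In both genes the IL-1β libraries stood far above the other 2 groups, and the co-culture libraries stood above control without overlap (Cyp7b1 log2 fold change 0.71, limma adjusted p = 1.7e-05). Another oxysterol-making gene of the list, Cyp27a1, went the other way and was under the minimum for testing, at 0.75, 0.77 and 0.46 FPKM in co-culture, 0.56, 0.41 and 0.4 FPKM with IL-1β, and 0.65, 0.68 and 0.65 FPKM in control. It is named after its values were seen. Oxysterols were not measured, and the part of these genes in the members' changes was not tested.

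The remaining tested genes of the LXR list had log2 fold changes between -0.73 and -0.06 with IL-1β. The sterol exporter gene Abca1 had 3.55 ± 0.035 FPKM in co-culture, 4.03 ± 0.32 with IL-1β and 5.41 ± 0.16 in control, so it stood lower in co-culture than in control (log2 fold change -0.50, limma adjusted p = 1.2e-04) and did not move back towards control as most members did. Mylip, whose ligase marks lipoprotein receptors for breakdown, had 9.85 ± 0.23 FPKM in co-culture, 7.65 ± 0.50 with IL-1β and 13.4 ± 0.44 in control. Of the SREBP processing genes outside the members, the protease gene Mbtps1 had 74.6 ± 1.9 FPKM with IL-1β and 82.6 ± 2.7 in control (limma adjusted p = 0.0031). Mbtps2, the gene of the other protease, had 7.29 ± 0.18 FPKM with IL-1β and 7.20 ± 0.27 in control (limma adjusted p = 0.80). Mbtps1 and Mbtps2 were chosen for naming after their values were seen.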
